A study of Caenorhabditis elegans with 2 samples.

Results

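The larger 21U-RNA cluster is a stretch of 3.7 Mb on Caenorhabditis elegans chromosome IV that ends 293829 bp before the right end of the chromosome (build ce11). Its members are all peaks of the authors' pooled list whose summit lies inside those bounds, and there were 1436 of them among 30000 peaks (4.79%). The peaks come from ChIP-seq of eGFP-tagged SNPC-4 in 2 biological replicates, which form 1 group. The worms were whole L4 larvae, with the sexes pooled, of strain OP179, which carries the integrated transgene wgIs179 with eGFP-snpc-4 on the unc-119(ed3) III mutant background. Nothing used here names the promoter of the tagged gene, and in whole larvae a peak cannot be assigned to a cell type. Background was not measured, since neither an input nor an untagged sample was analysed here. The read depth of the samples is unknown, because the lists hold no read counts. The replicate 1 list held 11042 peaks and the replicate 2 list 30000, so the replicates were compared at equal length, as the 11042 strongest peaks of each. With 1 group of 2 samples no test over samples was possible, and the 95% intervals given (Clopper-Pearson) reflect only how many peaks or genes were counted.

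21U-RNAs are the piRNAs of C. elegans. They are short RNAs that begin with uridine, bind the Argonaute protein PRG-1 in the germline and silence transposons and other foreign sequence. Most are made from clusters on chromosome IV, where each gene is transcribed on its own as a short precursor from a very small promoter, often marked by an upstream motif. SNPC-4 belongs to the worm SNAPc, which binds small nuclear RNA gene promoters, and is needed in the germline for normal 21U-RNA levels. The region held 11388 of the 15363 annotated 21U-RNA genes (74.1%), or 3078 genes per Mb. It held 459 protein-coding genes, 124 per Mb against 202.1 per Mb in the rest of the genome. The first and last summits inside the bounds lay at positions 13501109 (signal 7.10) and 17199925 (signal 6.30). The nearest summits outside lay at 13498776 (signal 3.63) and 17201615 (signal 4.79).

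The summit sequences of the 5 strongest members, and of the 3 strongest with 21U-RNA genes but no other small RNA gene within 300 bp, are given on the plus strand of the RefSeq genome (WBcel235, the sequence of ce11). They are shown because they are the sites where the signal in the cluster was highest. The capital letter marks the summit base.
Rank 48, upstream of the snoRNA gene Y67A10A.14 (chrIV:14327142-14327242): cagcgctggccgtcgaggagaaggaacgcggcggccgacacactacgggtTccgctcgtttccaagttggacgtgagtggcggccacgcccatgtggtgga
Rank 56, upstream of the alanine tRNA gene Y37A1B.t1 (chrIV:14013843-14013943): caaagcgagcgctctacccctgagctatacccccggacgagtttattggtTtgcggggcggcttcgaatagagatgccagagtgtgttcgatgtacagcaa
Rank 72, in an exon of lin-66 (chrIV:13893293-13893393): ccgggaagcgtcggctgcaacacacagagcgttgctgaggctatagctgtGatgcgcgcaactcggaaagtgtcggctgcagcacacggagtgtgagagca
Rank 100, upstream of the alanine tRNA gene Y105C5A.t2 (chrIV:15604345-15604445): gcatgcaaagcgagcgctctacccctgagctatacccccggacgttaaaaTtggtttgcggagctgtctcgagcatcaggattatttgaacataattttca
Rank 112, upstream of the snoRNA gene WBGene00220205 (chrIV:15234375-15234475): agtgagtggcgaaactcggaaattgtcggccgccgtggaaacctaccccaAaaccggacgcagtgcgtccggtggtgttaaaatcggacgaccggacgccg
Rank 134, with 21ur-916 and 21ur-14429 only (chrIV:14445568-14445668): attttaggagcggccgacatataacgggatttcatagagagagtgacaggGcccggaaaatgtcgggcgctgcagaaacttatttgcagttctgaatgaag
Rank 167, with 21ur-1763 and 21ur-7637 only (chrIV:14985268-14985368): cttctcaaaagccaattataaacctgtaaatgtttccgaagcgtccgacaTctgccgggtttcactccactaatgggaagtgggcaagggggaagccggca
Rank 183, with 21ur-13200, 21ur-12855, 21ur-7757 and 21ur-1441 only (chrIV:16181304-16181404): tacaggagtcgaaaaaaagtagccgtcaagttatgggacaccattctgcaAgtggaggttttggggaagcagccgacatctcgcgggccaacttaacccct
Ranks are places in the pooled list by signal. The windows of ranks 56 and 100 share a run of 39 bases, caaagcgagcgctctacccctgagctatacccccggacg, at the end of their alanine tRNA genes next to the summit. How the authors treated reads that match several places is not given, so signal at genes that share sequence is uncertain. None of the 8 windows holds CTGTTTCA, the core of the 21U-RNA upstream motif.

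Of the 21U-RNA genes near members of the authors' thresholded list, 4 are shown with the 70 bases upstream, because they carry the motif at its usual place. Capitals mark CTGTTTCA and the 21 bases of the RNA, and each line is on the strand of its gene.
21ur-916, near rank 134 (chrIV:14445766-14445856, minus strand): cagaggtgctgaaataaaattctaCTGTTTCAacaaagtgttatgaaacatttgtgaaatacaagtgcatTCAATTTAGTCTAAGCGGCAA
21ur-12855, near rank 183 (chrIV:16181491-16181581, minus strand): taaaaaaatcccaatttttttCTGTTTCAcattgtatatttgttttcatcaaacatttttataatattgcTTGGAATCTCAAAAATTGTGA
21ur-4573, near rank 344 (chrIV:14482853-14482943, plus strand): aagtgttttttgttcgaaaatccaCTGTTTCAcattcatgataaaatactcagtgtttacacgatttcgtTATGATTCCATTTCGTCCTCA
21ur-73, near rank 112 (chrIV:15234256-15234346, plus strand): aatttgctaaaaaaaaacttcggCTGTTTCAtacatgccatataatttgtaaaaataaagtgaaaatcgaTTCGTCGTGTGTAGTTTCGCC
In these genes the first base of the motif lay 46, 49, 46 and 47 bases upstream of the 5′ end. Of the 28 21U-RNA genes within 300 bp of a member in the thresholded list, 11 had the motif on their own strand within 70 bp upstream. In the whole cluster 3870 of 11388 21U-RNA genes (33.98%, 33.1 to 34.9) had it within 100 bp upstream, against 33.7% of the 3975 genes elsewhere, and its median place was 46 bp upstream.

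Pooled peaks were denser in the cluster than in the rest of the genome, at 388 against 296 per Mb (ratio 1.31). Stretches of the same length and place on the right arms of II, X and III had 344, 338 and 321 per Mb. Those of I and V had 278 and 249. The 2 replicates differed in the density of the cluster. At equal list length replicate 1 had 1041 peaks in the cluster (9.43% of its list, 8.89 to 9.99), or 281 per Mb, whereas replicate 2 had 363 (3.29%, 2.96 to 3.64), or 98.1 per Mb. The cluster makes up 3.69% of the genome. Against the rest of the genome the density ratio was 2.72 in replicate 1 and 0.887 in replicate 2, on either side of 1, so the pooled excess was not larger than the spread between the replicates. At its full length of 30000 peaks, replicate 2 had 914 in the cluster (3.05%).

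Replicate 1 had 2.87 times as many cluster peaks as replicate 2. The counts were 37 and 17 among as many of the strongest of each list as the thresholded list holds, 120 and 47 among the 1000 strongest, and 336 and 115 among the 3000 strongest, in replicate 1 and replicate 2. The ratio was therefore above 2 at every length compared. As shares of the list, replicate 1 stood above the cluster's 3.69% of the genome at each of these lengths, from 9.71% to 12%. Replicate 2 stood at 4.46% (2.62 to 7.05) at the shortest, 4.70% (3.47 to 6.20) at 1000 and 3.83% (3.17 to 4.58) at 3000 peaks, each above 3.69% but with intervals that took it in. In the thresholded list the density ratio was 1.68. The smaller 21U-RNA cluster of chromosome IV (4.5 to 7 Mb, 1126 21U-RNA genes per Mb) had 403 peaks in replicate 1 and 247 in replicate 2, a ratio of 1.63. The rest of chromosome IV had a ratio of 0.990. Stretches of the same length and place on the right arms of I, II, III, V and X had ratios of 0.795, 0.853, 0.906, 0.851 and 0.901.

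**Figure D1:**
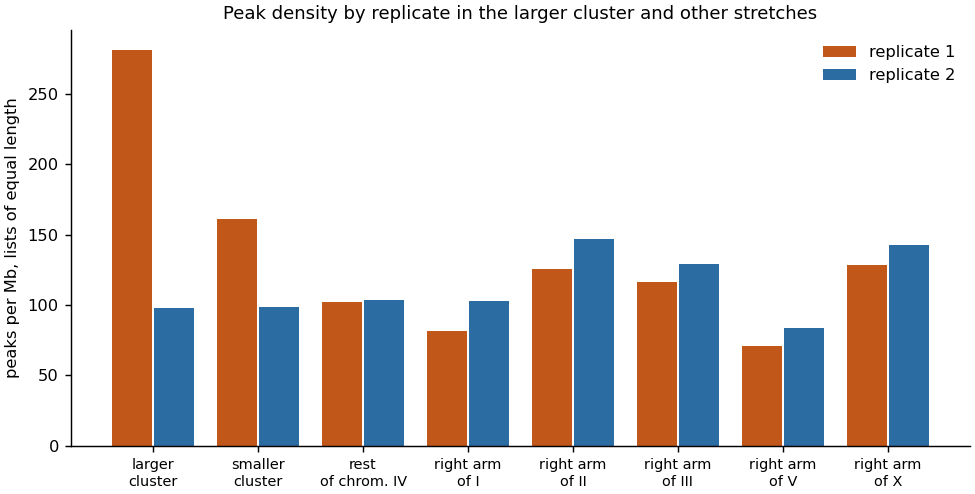
Peaks per Mb (y axis) in replicate 1 and replicate 2, each list held to its 11042 strongest peaks, in the larger cluster and in other stretches of the genome. The larger cluster stands at 281 per Mb in replicate 1 and 98.1 in replicate 2, the smaller cluster at 161 and 98.8, and replicate 1 lies below replicate 2 on each of the 5 other right arms.

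Along the cluster the replicate difference held in nearly every bin. Of its 37 bins of 100 kb, 36 had more replicate 1 than replicate 2 peaks, whereas 373 of 962 bins outside did (38.8%). Per bin, replicate 1 had 13 peaks at the lowest, 29 at the median and 46 at the highest. Replicate 2 had 3, 10 and 18, close to its median of 11 outside. Of the cluster bins, 30 in replicate 1 and 0 in replicate 2 were above the 95th percentile of bins outside, which was 18 peaks in replicate 1 and 19 in replicate 2. For the pooled members, with 25, 39 and 63 per bin, 11 bins were above the outside 95th percentile of 42.

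The number of 21U-RNA genes per bin, 24 at the lowest, 322 at the median and 486 at the highest, followed the peaks of replicate 1 more closely than those of replicate 2. Over the 37 bins, Spearman's rho with 21U-RNA genes was 0.568 for replicate 1 (Pearson's r 0.641), 0.0339 for replicate 2 (r = -0.0248) and 0.295 for the pooled members (r = 0.297). These are descriptions: the bins share their libraries, and 21U-RNA genes were fewer where protein-coding genes were more (rho = -0.536). With protein-coding genes rho was -0.403 for replicate 1, 0.231 for replicate 2 and 0.0578 for the members. The counts of the 2 replicates themselves had rho = 0.238.

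The bins with the most members were 15.9 to 16 Mb (63 members), 14.6 to 14.7 Mb (56 members, 407 genes) and 14.8 to 14.9 Mb (54 members, 359 genes). The fewest were in 15.4 to 15.5 Mb (25 members, 243 genes), 13.9 to 14 Mb (26 members, 290 genes) and 14.1 to 14.2 Mb (26 members, 268 genes). In the bin richest in 21U-RNA genes, 16 to 16.1 Mb with 486, there were 42 members, 41 replicate 1 peaks and 14 replicate 2 peaks. In the poorest, the leftmost bin with 24 genes, there were 36 members, 13 replicate 1 peaks and 15 replicate 2 peaks. That bin was the exception in which replicate 2 had more.

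**Figure D2:**
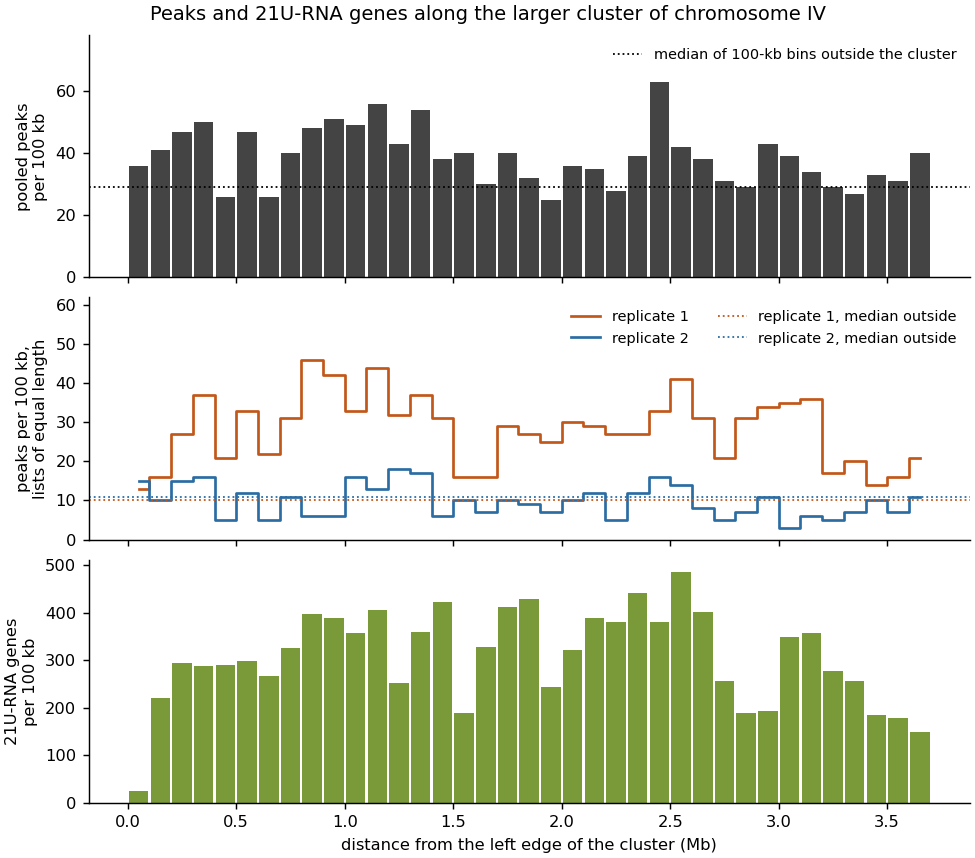
Pooled members (top), peaks of replicate 1 and replicate 2 at equal list length (middle) and 21U-RNA genes (bottom) per 100-kb bin, by distance from the left edge of the cluster in Mb. Dotted lines give the median of bins outside the cluster (29 pooled, 10 in replicate 1 and 11 in replicate 2), and replicate 1 lies above its line in all 37 bins shown.

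The median member was close to the rest of the list in strength, while the cluster's share was somewhat larger among the strongest peaks. The signal is the authors' value per peak on a scale that is not stated, so it serves here to rank and describe peaks within a list. Members ranged from 3.27 to 188 with a median of 5.09, and the rest of the list ranged from 3.27 to 1230 with a median of 4.91. The median member stood at rank percentile 53.8 of the pooled list, where 100 is the strongest. Cluster peaks stood at a median rank percentile of 56.0 in replicate 1 and 56.3 in replicate 2. Against 4.79% of the whole list, the cluster's share of the strongest peaks was 4 of the top 100 (4%, 1.10 to 9.93), 65 of the top 1000 (6.5%, 5.05 to 8.21) and 186 of the top 3000 (6.2%, 5.36 to 7.12). A q-value at or below 0.05 was deposited for 259 members (18.0%), against 14.1% of the whole list. The authors' list thresholded by the irreproducible discovery rate (IDR, a measure of how far peak ranks repeat between replicates) held 23 members (1.602%, 1.02 to 2.39), against 1.27% of the whole list.

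Summits of the 2 replicates lay differently with respect to 21U-RNA genes. Of the replicate 1 summits in the cluster, 801 of 1041 (76.9%, 74.3 to 79.5) had a 21U-RNA 5′ end within 300 bp. Of the replicate 2 summits, 164 of 363 did (45.2%, 39.98 to 50.5). Because these genes are dense, 64.6% of all positions of the cluster lie as close. The pooled members, at 945 of 1436 (65.8%, 63.3 to 68.3), were near that share. Over the genome, 4.48% of pooled peaks, 9.38% of replicate 1 peaks and 2.59% of replicate 2 peaks were within 300 bp of such an end. The median distance to the nearest 21U-RNA 5′ end was 110 bp in replicate 1, 363 bp in replicate 2 and 180.5 bp for the members, and 155 bp for all positions.

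Among the strongest peaks replicate 1 did not stand above positions: 72 of its 120 cluster peaks in the top 1000 (60%, 50.7 to 68.8) and 19 of 37 among as many of the strongest as the thresholded list holds (51.4%, 34.4 to 68.1) were within 300 bp of a 21U-RNA 5′ end. The share was 72.6% (67.5 to 77.3) of the 336 in its top 3000. In replicate 2 it was 40.4% of 47, 41.2% of 17 and 43.5% of 115 at the same 3 list lengths.

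At shorter and longer distances replicate 1 again stood above positions and replicate 2 below them, whereas the members changed sides. Within 50 bp of a 21U-RNA 5′ end were 28.2% of replicate 1 summits, 6.61% of replicate 2 summits and 18.2% of members, against 22.1% of positions. Within 1000 bp were 86.8%, 67.8% and 80.5% in the same order, against 79.2% of positions. Where no 21U-RNA 5′ end lay within 500 bp, the lists had 168 summits per Mb in replicate 1 and 147 in replicate 2. With 1 to 4 such ends they had 294 in replicate 1 and 93.1 in replicate 2, and with 5 or more, 370 and 59.6. So the replicates were closest in the parts of the cluster free of 21U-RNA genes, and replicate 1 was higher and replicate 2 lower with each step in their number. The members showed little of either, with 359, 402 and 396 per Mb over the same steps.

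No sharp peak of summits at a fixed place relative to the 5′ ends was seen. Counted in 50-bp steps, all positions had 0.154 summit and 5′ end pairs per point. Replicate 1 stayed above that at every step within 1000 bp. Its highest value, 0.219, came both in the 50 bp just upstream of the 5′ end and at 200 to 250 bp downstream. Replicate 2 dropped to 0.0496 in the 50 bp just upstream and 0.0413 in the 50 bp just downstream. The members were also below positions there, at 0.142 and 0.112. Of the summits within 300 bp, 52.6% in replicate 1 (49.0 to 56.1), 40.9% in replicate 2 (33.3 to 48.8) and 48.6% of members (45.3 to 51.8) lay upstream of the nearest 5′ end.

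**Figure D3:**
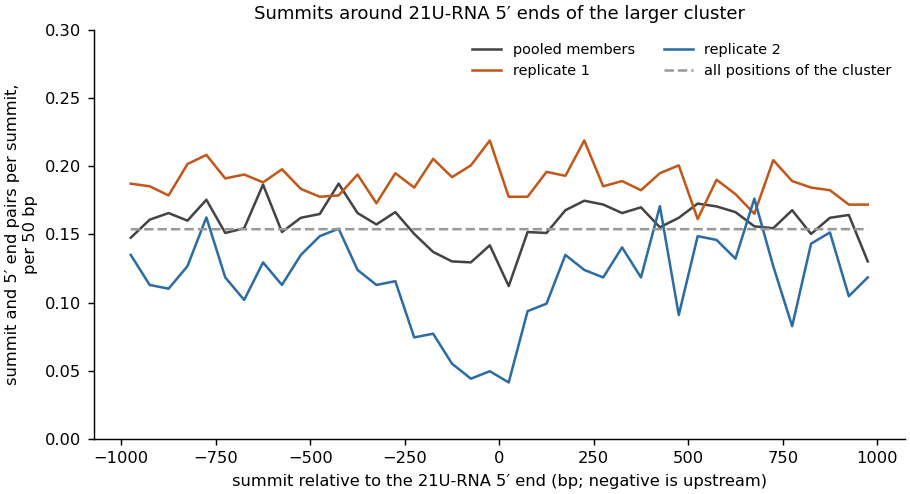
Pairs of a summit and a 21U-RNA 5′ end per summit and 50-bp step (y axis), by the place of the summit relative to the 5′ end in bp (x axis, negative is upstream), for the pooled members, both replicates at equal list length and all positions of the cluster. Replicate 1 lies above the 0.154 of all positions. Next to the 5′ end replicate 2 dips to 0.0413 and the members to 0.112.

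Base composition moved with both replicate differences. The median GC content within 100 bp of cluster summits was 31.3% in replicate 1, 40.8% in replicate 2 and 35.8% for the members, and that of all positions was 30.8%. Outside the cluster it was 37.8% in replicate 1 and 41.3% in replicate 2. Outside the cluster the ratio of replicate 1 to replicate 2 peaks was 3.45 where GC was below 30%, 1.88 at 30 to 35%, 0.934 at 35 to 40% and 0.615 at 40% and above. Inside the cluster the counts were 439 and 17 below 30% (ratio 25.8), 229 and 58 at 30 to 35% (3.95), 164 and 86 at 35 to 40% (1.91), and 209 and 202 at 40% and above (1.03). Thus in each of the 4 strata the cluster ratio was above the ratio outside, and in the highest stratum the replicates had nearly equal counts in the cluster.

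Positions near 21U-RNA 5′ ends were AT-rich, and the comparison with positions of the same GC content read differently. Within 300 bp of such an end lay 83.0% of cluster positions below 30% GC, 65.0% at 30 to 35%, 46.6% at 35 to 40% and 28.0% at 40% and above. Replicate 1 summits were near one in 92.9% (90.1 to 95.2), 82.5% (77.0 to 87.2), 65.9% (58.1 to 73.1) and 45.9% (39.0 to 52.9) of cases over these strata. The replicate 1 share was above that of positions in all 4 strata. Replicate 2 summits were near one in 64.7% (38.3 to 85.8), 44.8% (31.7 to 58.5), 48.8% (37.9 to 59.9) and 42.1% (35.2 to 49.2). Replicate 2 was thus below positions at 30 to 35% GC and above them at 40% and above, with intervals that took in the share of positions in the other strata. Weighted to the GC content of the summits, the share of positions was 62.3% for replicate 1, 40.9% for replicate 2 and 53.6% for the members. The members then stood 12.2 percentage points above positions of like composition, replicate 1 14.7 and replicate 2 4.31. Whether GC content, or a step of library making that depends on it, accounts for the difference between the replicates was not tested.

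**Figure D4:**
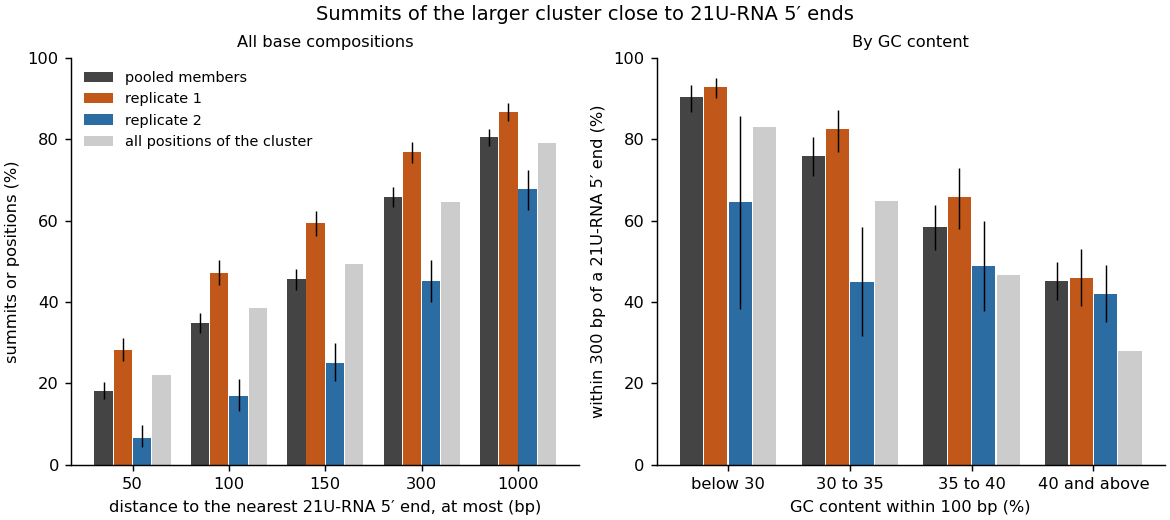
Left, share of cluster summits within 50 to 1000 bp of a 21U-RNA 5′ end (%), for the pooled members, replicate 1, replicate 2 and all positions of the cluster. Right, the share within 300 bp by GC content within 100 bp; bars are Clopper-Pearson 95% intervals, and at 40% GC and above both replicates (45.9% and 42.1%) stand above the 28.0% of positions.

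Counted by gene, 2460 of the 11388 21U-RNA genes of the cluster (21.6%, 20.8 to 22.4) had a member within 300 bp. Over the genome 3024 of 15363 such genes (19.7%) had a pooled peak. Those counts include the cluster's own genes, 74.1% of the total, so the 2 shares are not separate. In the cluster, replicate 1 had a peak at 2379 (20.9%), replicate 2 at 373 (3.28%) and the thresholded list at 28 (0.246%). The share of cluster positions within 300 bp of a peak is not given here, so these shares are not set against it. Pooled peaks were 1.31 times as dense in the cluster as in the rest of the genome. Shares by gene, here and below, are not adjusted for that. Many 21U-RNA genes of the cluster overlap or share a peak: when 5′ ends within 300 bp of each other were merged, 981 of 3215 loci (30.5%) had a member. A member lay near 22.6% of genes with CTGTTTCA within 100 bp upstream and 21.1% of genes without it. The shares with a replicate 1 peak were 22.8% (21.5 to 24.2) with the motif and 19.9% (19.0 to 20.8) without it, and those with a replicate 2 peak were 3.18% and 3.33%. By strength, 55.7% of the 359 strongest members were within 300 bp of a 21U-RNA 5′ end, against 69.1% of the 359 weakest.

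Without regard to GC content, the motif itself was about as common around members as in the cluster at large. CTGTTTCA, searched on both strands within 100 bp of the summit, was found for 232 members (16.2%, 14.3 to 18.2), against 17.7% of all windows of that length in the cluster, 1.26% of pooled peaks in the rest of the genome and 1.97% of all pooled peaks. It was found for 24.98% of replicate 1 cluster summits (22.4 to 27.7) and 7.16% of those of replicate 2 (4.73 to 10.3). Windows below 30% GC held it in 41.5% of replicate 1 summits (36.8 to 46.2) and 34.1% of members (29.1 to 39.4), against 27.0% of cluster positions of that composition. In replicate 2 that stratum had 6 of 17 summits. Members were also above positions at 30 to 35% GC (22.1%, 17.7 to 27.1, against 16.2%). They were above at 35 to 40% (8.70%, 5.86 to 12.3, against 7.26%) and at 40% and above (3.56%, 2.05 to 5.71, against 2.64%). In these last strata the intervals took in the share of positions. A match is a description of the letters and not a binding site.

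A different octamer, GGCCGACA, had come up in an earlier search of these lists, and can be read in the printed windows of ranks 48, 112 and 134, in that of rank 112 on the minus strand. Searched on both strands, it was present within 100 bp of 36 members (2.51%, 1.76 to 3.45), 16 replicate 1 summits (1.54%) and 17 replicate 2 summits (4.68%), against 0.680% of cluster windows. At 40% GC and above it was present for 6.89% of members (4.73 to 9.64), 6.22% of replicate 1 summits and 8.42% of replicate 2 summits, against 2.39% of cluster windows of that composition. Among pooled peaks in the rest of the genome it was present for 1.38%, and for 2.61% of those at 40% GC and above. Both replicates stood above the cluster windows over all compositions and at 40% GC and above. At 35 to 40% GC, replicate 1 (0.610%) and replicate 2 (0%) stood below the 1.10% of cluster windows. The octamer was picked from these data, so its presence here is no independent evidence.

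Sharing between the replicates read differently from either side. At equal length and within 200 bp, 108 of the 1041 replicate 1 summits (10.4%, 8.59 to 12.4) had a match in replicate 2, against 16.4% over the whole replicate 1 list. These were matched by 108 of the 363 replicate 2 summits (29.8%, 25.1 to 34.7), against 16.3% over its whole list. The shares are not adjusted for peak density, which for replicate 1 was 281 per Mb in the cluster and 104 in the rest of the genome. Among the members, 117 (8.15%) matched both replicates, 486 (33.8%) replicate 1 only, 238 (16.6%) replicate 2 only and 595 (41.4%) neither. Of pooled peaks outside the cluster, 6.37% matched both, 14.6% replicate 1 only, 29.7% replicate 2 only and 49.4% neither. Members thus matched both (6.78 to 9.68) and replicate 1 only more often, and replicate 2 only and neither less often, than other pooled peaks. In all, 42.0% of members matched replicate 1, against 21.9% of pooled peaks over the genome, and 24.7% matched replicate 2, against 35.5%. The 117 members found in both had a median signal of 12.6 and a median GC content of 41.3%. Of these 117, 52.1% lay within 300 bp of a 21U-RNA 5′ end and 17.9% within 300 bp of a small RNA gene.

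Members differed in kind by the replicate that held them. Those matched in replicate 1 only had a 21U-RNA 5′ end within 300 bp in 75.1% of cases and a median GC content of 32.3%. Those matched in replicate 2 only had one in 43.7% of cases and a median GC content of 40.8%. Summits fell in protein-coding exons for 13.3% of replicate 1 and 27.8% of replicate 2 cluster peaks, and 22.6% of members, against 15.4% of positions. Introns held 30.7%, 30.6% and 29.8% in the same order, against 28.0% of positions.

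Small RNA genes other than 21U-RNA genes (tRNA, snoRNA, SmY, snRNA and miRNA genes here) had, as a class, a member at a larger share of genes than 21U-RNA or protein-coding genes did, though miRNA genes did not. Of the 58 in the cluster, 43 (74.1%, 61.0 to 84.7) had a member within 300 bp, against 51.7% of such genes over the genome by the same rule. Replicate 1 had a peak at 36 of them and replicate 2 at 29, so here the replicates were far closer than at 21U-RNA genes. Of the members, 45 (3.13%) were within 300 bp of such a gene, against 2.39% of all pooled peaks. Most of the 45 were strong: 36 were among the 359 strongest members (10.03% of these), 6 and 3 in the next groups of 359 and 0 among the 359 weakest. For members matched in both full replicate lists, replicate signals had a Spearman's rho of 0.746 over the 29 at small RNA genes and 0.134 over the 110 near 21U-RNA genes with no small RNA gene, a description over peaks of the same libraries. Pooled signal reached 188 in the first set and 40.6 in the second, and rho was not adjusted for this difference in range.

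tRNA genes, transcribed by RNA polymerase III, made up most of this class. Of 32, 29 had a member, 25 a replicate 1 peak and 19 a replicate 2 peak, against 64.2% with a peak over the genome. Member summits lay from -274 to 153 bp of the 5′ end with a median of 13 bp. The strongest was the alanine tRNA gene Y37A1B.t1 (WBGene00014563, 14013805 to 14013876, minus strand), with signal 175 pooled, 91.4 in replicate 1 and 82.6 in replicate 2, and its summit 17 bp upstream. The alanine tRNA genes Y105C5A.t2 (58.8 pooled, 27.2 in replicate 1 and 29.1 in replicate 2) and Y7A9D.t2 (37.6, 21.03 and 17.4 in the same order) followed. Their summits lay 12 and 17 bp upstream, so all 3 pooled summits were close to the start of the gene. The glycine tRNA gene Y57G11B.t1 (35.02 pooled), the proline tRNA gene F02H6.t1 (30.6) and the alanine tRNA gene Y65A5A.t2 (22.1) were also in the thresholded list. The 3 tRNA genes without a member were Y40H7A.t1, Y73F8A.t3 and Y51H4A.t3.

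snoRNAs guide the modification of other RNAs, mostly rRNA. Of the 8 snoRNA genes of the cluster, 6 had a member (75%, against 48.5% over the genome), and all 6 summits lay upstream, by 21 to 125 bp. The strongest member of the whole cluster was at Y67A10A.14 (WBGene00045163, 14326948 to 14327121, minus strand), outside protein-coding genes, with signal 188 pooled, 62.8 in replicate 1 and 125 in replicate 2, and its summit 71 bp upstream. The same summit lay 221 and 224 bp downstream of the 5′ ends of the overlapping 21U-RNA genes 21ur-7591 and 21ur-10179. The snoRNA gene WBGene00220205 (15234446 to 15234620), in an intron of pkd-2, a polycystin gene, came next with 52.1 pooled, 19.7 in replicate 1 and 29.6 in replicate 2. Its summit lay 21 bp upstream of the snoRNA 5′ end and 22 bp upstream of that of 21ur-1009. It also lay 98 to 103 bp downstream of the 5′ ends of 21ur-13340, 21ur-73 and 21ur-15018. Signal of the snoRNA gene and of 21ur-1009 cannot be told apart there. Another snoRNA gene, WBGene00220222, had 14.3 pooled, 7.74 in replicate 1 and 8.44 in replicate 2.

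All 5 SmY genes of the cluster had a member, as did 10 of 12 over the genome. SmY RNAs are nematode RNAs that take part in trans-splicing. Their pooled signals were 31.4 for smy-8, 17.9 for smy-10, 17.5 for smy-11, 16.6 for smy-9 and 8.20 for smy-12. In replicate 1, smy-8 had 17.02, smy-10 13.8 and smy-11 10.7, and smy-9 and smy-12 had no peak within 200 bp. In replicate 2 all 5 had a peak, from 5.92 at smy-12 to 13.9 at smy-9. The pooled smy-8 summit lay 16 bp upstream of the smy-8 5′ end. It lay 18 and 21 bp upstream of those of 21ur-3338 and 21ur-2046, so signal of these genes cannot be told apart. Of 3 snRNA genes (56.2% with a peak over the genome), Y57G11C.35 (14764848 to 14765034, in an intron of Y57G11C.5) had a member with 26.5 pooled and 20.99 in replicate 1, and no replicate 2 peak within 200 bp. Of 10 miRNA genes, mir-52 (20.3 pooled, 8.14 in replicate 1 and 13.8 in replicate 2) and mir-8198 (5.79 pooled, 6.03 in replicate 1) had a member, a share of 20% against 26.1% over the genome.

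The 23 members in the thresholded list were mixed in kind. A small RNA gene lay within 300 bp of 10, 21U-RNA genes alone of 5, other genes of 6, and no 5′ end of 2. In all, 11 of the 23 (47.8%, 26.8 to 69.4) had a 21U-RNA 5′ end within 300 bp. The 5 with 21U-RNA genes alone were rank 134 (40.6 pooled, 17.5 in replicate 1 and 24.1 in replicate 2), rank 167 in an intron of atln-2 (34.7, 8.29 and 24.8), rank 183 (32.5, 9.34 and 22.7), rank 319 at 21ur-8949, 21ur-8216 and 21ur-6308 (23.4, 9.03 and 13.9), and rank 344 at 21ur-9221 and 21ur-4573 (22.3, 9.93 and 9.80). All 5 had a peak in both replicates. Of all 23, only rank 344 had CTGTTTCA within 100 bp of its summit. GC content was from 34.8% to 47.8% at the 5. It was above the cluster's 32.3% at all 23, with the lowest at rank 303 (33.3%).

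The other 2 members of the thresholded list had no 5′ end within 300 bp. Rank 72, in an exon of lin-66, which encodes a protein that acts in the heterochronic pathway, had 97.6 pooled, 27.0 in replicate 1 and 70.6 in replicate 2. Rank 144, in an intron of Y105C5A.15, had 38.6 pooled, 20.8 in replicate 1 and 18.0 in replicate 2. The first lay 5264 bp and the second 4268 bp downstream of the start of its gene.

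**Figure D5:**
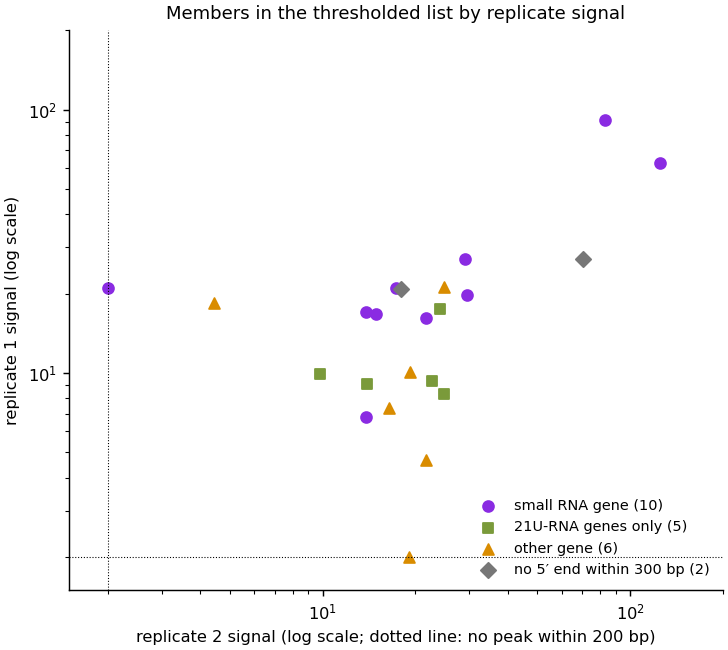
Signal in replicate 1 (y axis) against replicate 2 (x axis), both on log scales, of the 23 members in the thresholded list, by the genes within 300 bp of the summit. Small RNA genes hold both points with the highest replicate 1 values (91.4 and 62.8), and the 2 points on the dotted lines, at Y57G11C.35 and sec-61.A, have no peak within 200 bp in 1 replicate list.

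Protein-coding genes made up a smaller share of what lay near members than elsewhere in the list. Of 459 such genes, 146 (31.8%, 27.6 to 36.3) had a member within 300 bp, against 23.4% over the genome. Of the members, 152 (10.6%, 9.04 to 12.3) were near one, against 15.4% of all pooled peaks. Replicate 1 had a peak at 107 of these genes and replicate 2 at 59. The strongest were at dld-1, which encodes dihydrolipoamide dehydrogenase (44.2 pooled, 21.2 in replicate 1 and 24.8 in replicate 2), mrps-7, a mitochondrial ribosomal protein gene (26.8, 4.67 and 21.8), and ntl-11, a gene of the CCR4-NOT complex (26.2, 10.05 and 19.3). The dld-1 member also lay 80 bp into the unclassified non-coding RNA gene LLC1.120. The centriole gene sas-6 shared its member with Y45F10D.7 (24.0, 18.4 and 4.45), fdx-2, a ferredoxin gene, had 24.7, 7.33 and 16.4, and sec-61.A, a translocon gene, had 21.6 pooled, 19.1 in replicate 2 and no replicate 1 peak within 200 bp.

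Among protein-coding lists, 6 of 42 chemoreceptor genes had a member (14.3%, against 12.3% over the genome), the strongest at srz-75 (pooled signal 10.04), srv-11 (9.34) and srj-42 (8.48). Of 3 ribosomal protein genes, rpl-18 (pooled signal 15.7) and rpl-29 (12.9) had one and rps-18 had none. The cluster held 0 histone genes, 0 of the listed SNAPc and RNA polymerase III genes and 0 of the listed piRNA pathway genes. Of the other RNA classes, 49 of 90 unclassified non-coding RNA genes (54.4%, 43.6 to 65.0, against 30.3% over the genome) had a member, led by WBGene00199798 (pooled signal 175) and WBGene00199452 (58.8), which share theirs with tRNA genes on the other strand. Of 123 pseudogenes, 21 had one (17.1%, against 13.3% over the genome), led by Y73F8A.4 (pooled signal 9.71), Y40H7A.9 (9.50) and F02H6.1 (8.46). Of 4 antisense RNA genes 1 had a member (anr-3, 3.52), and of 3 lncRNA genes 0. Counting every class, 1065 members (74.2%, 71.8 to 76.4) had a 5′ end within 300 bp, and 945 of these were near a 21U-RNA 5′ end. The share was 27.2% for all pooled peaks. That is not a like comparison, since 64.6% of all positions of the cluster lie within 300 bp of a 21U-RNA 5′ end alone.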

How the data were processed

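Per the labels and the records deposited with each sample, both replicate lists and the pooled list were called from ChIP-seq alignments together with 1 other file that both replicates share and that is not described. The labels name a possible control experiment, not analysed here; whether that file is this control is not stated. For the aligner, the peak caller, the IDR threshold and the read depth, nothing is given in the sources used here. The authors deposited for each peak a signal value of unstated scale, a −log10 q-value and a summit offset, from which the summit position was computed; the p column holds no values. The ce11 lists were used and the ce10 lists were not.

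The members and lists were chosen with earlier results of these data known. Gene positions were those of Ensembl 115 (WBcel235), and all 12125 genes of the cluster matched RefSeq by identifier. A gene counted as having a peak if a summit lay within 300 bp of its annotated 5′ end, and summits matched between lists within 200 bp. Replicates were compared as their 11042 strongest peaks. The named items are the 20 strongest members with their genes, members of the thresholded list near 21U-RNA genes, up to 3 genes of highest signal per class, and the bins with the most and fewest members. GC content was taken within 100 bp of a summit or position in 4 strata, a comparison added after the replicates had been compared. The counting was tested on simulated summits. No replicate check beyond the 2 values, and no test, was possible with 1 group. Python 3.11.15, numpy 2.4.6, pandas 2.3.3 and SciPy 1.17.1 were used.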

Additional observations from a re-analysis of the deposited data

How the results depend on the processing

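Each of 15 results was recomputed under its alternatives, 80 settings in all. Of these, 42 left the value within the spread between replicates, its counting interval or, for the number of thresholded members, a fixed fold band. Another 35 moved it, and 3 reversed a difference whose counting interval had excluded 0. A further 3 changed sides without having been set apart from 1 or 0 by that spread or interval. They were the density ratio without replicate 1, and the members' difference from positions within 150 bp and for the strongest 11042. The spread is the standard deviation of the 2 single-replicate values. It widens as the replicates disagree, so the 42 do not measure stability. The share of members near a 21U-RNA 5′ end, 65.8%, counted as unmoved at 45.2% without replicate 1 and 76.9% without replicate 2. With 1 replicate alone at equal length, the share of peaks in the cluster was 3.29 to 9.43%, the density ratio 0.887 to 2.72, cluster peaks among as many of the strongest as the thresholded list holds 17 to 37, 21U-RNA genes with a peak 3.28 to 20.9%, small RNA genes 50 to 62.1%, protein-coding genes 12.9 to 23.3% and the median rank percentile 55.9 to 56.3; the lower density ratio, without replicate 1, is on the other side of 1. A 1000-bp window raised the share of 21U-RNA genes with a member to 56.9% and of protein-coding genes to 64.1%, and 150 bp lowered that of protein-coding genes to 14.8%. With only the 11042 strongest pooled peaks these shares were 7.54% and 17.4%, with fewer peaks by construction.

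Replicate 1 matches in replicate 2 were 7.30% within 100 bp and 16.0% within 500 bp, and 35.1%, 20.8% and 12.8% for as many of the strongest as the thresholded list holds, the 1000 and the 3000 strongest. The ratio of cluster peaks was 2.18 at the first of these lengths, and 25.8, 3.95, 1.91 and 1.03 from the lowest to the highest GC stratum. Members with CTGTTTCA were 9.05% within 50 bp, 31.0% within 200 bp and 12.1% among the 11042 strongest pooled peaks.

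Relative to all positions, replicate 1 summits near 21U-RNA 5′ ends stood 12.4 percentage points higher, but 7.61 within 1000 bp, 8.05 for the 3000 strongest, and on the other side at -4.57 for the 1000 and -13.2 at the length of the thresholded list. Replicate 2 summits stood at -19.4, at -11.5 within 1000 bp, at -10.4 for its full list, and on the other side at 4.31 against positions of the same GC content. The members stood at 1.24, at -3.66 within 150 bp, at -4.91 for the strongest 11042 and at 12.2 against positions of the same GC content. At the 3 reversed replicate values the counting interval took in the share of positions, for replicate 2 that of the same GC content. The cause of the turns with list length was not tested. These differences from positions, the GC strata and the full replicate 2 list were chosen after seeing the data. No paired analysis was possible because there is 1 group.

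The lists hold no read counts, so depth sets an unknown limit, and no control sample was analysed here. The signal scale is not stated. With 2 replicates that differ 2.87-fold in their cluster peaks, the pooled values describe neither replicate closely.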

Other observations

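Pooled peaks of the smaller 21U-RNA cluster were not denser than the rest of chromosome IV, at 287 per Mb against 292 per Mb. In the thresholded list the order was different, with 6.40 peaks per Mb in the smaller cluster, 6.22 in the larger cluster and 2.74 in the rest of chromosome IV. The right arms of X and II had 11.1 and 8.38 thresholded peaks per Mb with 39 and 17 21U-RNA genes in 3.7 Mb, so the thresholded density of the larger cluster lay within the range of these stretches. Of the 21U-RNA genes of the larger cluster, 96.4% have T as their first base in the genome, and 66.9% of their 5′ ends lie outside protein-coding genes.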
